A study of Mus musculus with 4 samples.

Results

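The question addressed was whether dietary heme, the red pigment of blood and meat, acts on the same genes at the surface of the mouse colon and in its crypts. For each gene the surface effect (heme minus control in surface cells) was set against the crypt effect (heme minus control in crypt cells), and the crypt effect was subtracted from the surface effect to give the effect difference. Values are log2 expression values from RMA, so 1 unit is a 2-fold difference. The genes described are the 11147 of 19938 named genes whose highest value on the 4 arrays reached 5.75, the median of all gene values, called the floor here. A positive effect difference means that a gene stood higher on heme, relative to control, at the surface than in the crypt. The same number also states how far the surface-to-crypt difference of a gene moved between the diets.

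All mice were male C57BL/6 animals of 11 weeks that received a Westernized feed, high in fat (40% of energy) and low in calcium, for 14 days. The heme groups received that feed with 0.5 µmol/g heme added, and the control groups received it without heme. Surface cells and crypt cells were cut separately from frozen rolls of mid-colon by laser capture microdissection, which collects chosen cells from a tissue section. RNA of 4 mice was pooled for control surface and for control crypt, and RNA of 3 mice for heme surface and for heme crypt, with 1 array per pool. Both pools of a diet were cut from the colons of the same animals. With 1 array per group there is no replicate, no test was run and no difference below has a replicate check. A gene is called higher or lower where a difference reached 1 on the log2 scale, a limit on size that carries no information on how mice vary.

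As background, the colon epithelium renews itself from stem and progenitor cells in the crypt, whose daughters differentiate as they move up to the surface that faces the gut contents. NRF2 is a transcription factor released under oxidative or electrophilic stress that switches on genes for glutathione supply, detoxification and NADPH, and heme oxygenase, encoded by Hmox1, breaks heme down. ATF4 raises amino acid import and synthesis under nutrient or stress signals, PPAR alpha raises fatty acid oxidation, and interferons raise a set of antiviral and antigen presentation genes. Mitotic genes are read in dividing cells and therefore mark the proliferating part of the crypt.

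The pools were checked against markers of their compartments. The log2 of the summed signal of 14 surface colonocyte markers was 16.04 on the control surface array and 16.19 on the heme surface array, against 13.56 and 13.71 on the control and heme crypt arrays. For 14 crypt base and progenitor markers the values were 11.4 and 11.1 in surface cells and 13.0 and 12.6 in crypt cells. Both lists lay on the side their labels give, on both diets. Markers of other cells were present in all 4 pools and did not move alike with heme. The summed signal of 14 smooth muscle and fibroblast markers was 12.4 and 12.2 at the surface on control and heme, and 12.7 and 11.9 in the crypt. For 15 leukocyte markers it was 11.3 and 11.3 at the surface, and 11.1 and 10.7 in the crypt, with Cd3g, Cd8a, Cd4, Cd79a, Ms4a1 and Itgam below the floor on all 4 arrays. Endothelial markers, 8 in number, gave 10.5 and 10.5 at the surface, and 9.88 and 9.21 in the crypt. The heme crypt pool thus had the lowest signal of the 4 for these 3 marker lists. In pooled tissue, fewer cells of a type and less RNA per cell cannot be told apart.

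**Figure D1:**
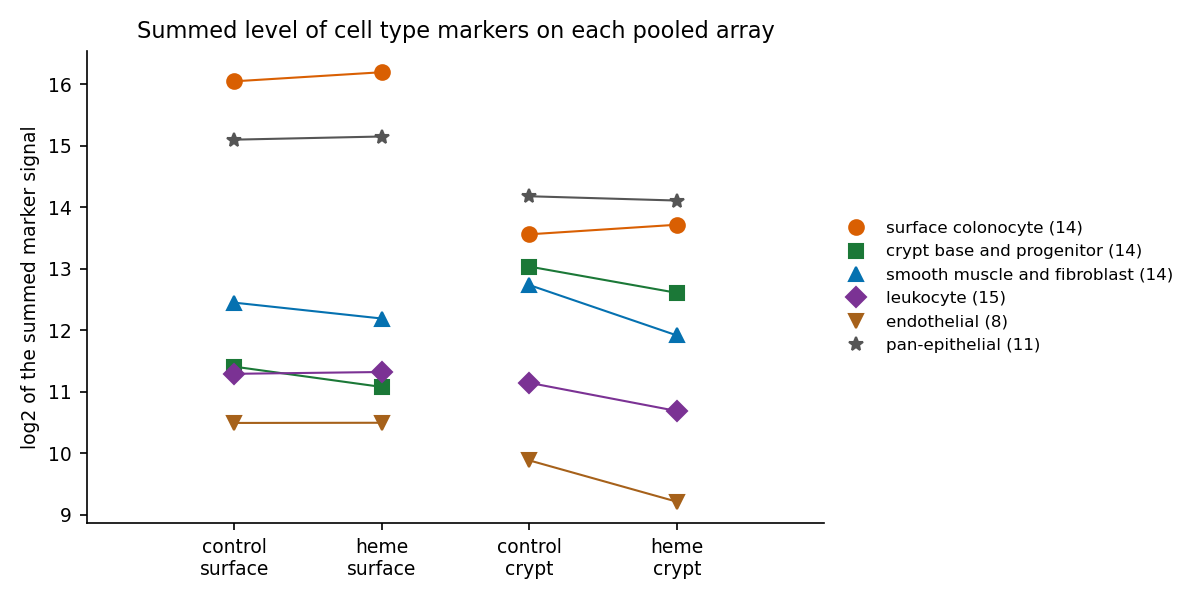
Log2 of the summed signal of each marker list (vertical axis) on the 4 pooled arrays (horizontal axis), with lines joining control and heme within a compartment and the number of markers in brackets. Smooth muscle, leukocyte and endothelial markers are lowest in the heme crypt pool, at 11.9, 10.7 and 9.21.

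The heme effect differed between the compartments by at least 2-fold for a small share of genes. Of the 11147 genes, 367 (3.29%) had an effect difference of 1 or more and 242 (2.17%) of -1 or less. Their range ran from -3.93 to 4.42, with quartiles of -0.28 and 0.27 and a median of -0.02. Centring the arrays on ribosomal protein genes moved the median crypt effect from 0.01 to 0.14 and the split from 367 and 242 to 301 and 313, so the excess of positive differences does not hold under that scaling. Surface effects were the wider of the pair, with an SD across genes of 0.54 against 0.40 for crypt effects. Across genes, surface and crypt effects had a Pearson's r of 0.41 and a Spearman's rho of 0.41 (n = 11147 genes, which are not independent replicates, and pools from the same mice).

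Most genes past 2-fold in a compartment were not past it in the other. Of 375 genes (3.36%) higher in heme surface cells, 43 (11.5%) were also higher in heme crypt cells, 227 (60.5%) lay within 0.5 of 0 there, and 296 (78.9%) had a crypt effect of the same sign. Those 43 make 22.9% of the 188 genes (1.69%) higher in heme crypt cells. Of 210 genes (1.88%) lower in heme surface cells, 31 (14.8%) were also lower in the crypt, which is 24.0% of the 129 genes (1.16%) lower there. The genes were then sorted into those past 2-fold in the same direction in both compartments (shared), those past 2-fold in 1 compartment while the other stayed within 0.5 and the effect difference reached 1 (limited to surface or to crypt), and those that moved by at least 0.5 in opposite directions with an effect difference of at least 1 (opposite). These classes held 43 (0.386%) and 31 (0.278%) shared genes higher and lower, 166 (1.49%) and 72 (0.646%) surface-limited genes higher and lower, 70 (0.628%) and 28 (0.251%) crypt-limited genes higher and lower, and 62 (0.556%) opposite genes. Since the classes are cut from these same values, the counts describe the arrays.

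**Figure D2:**
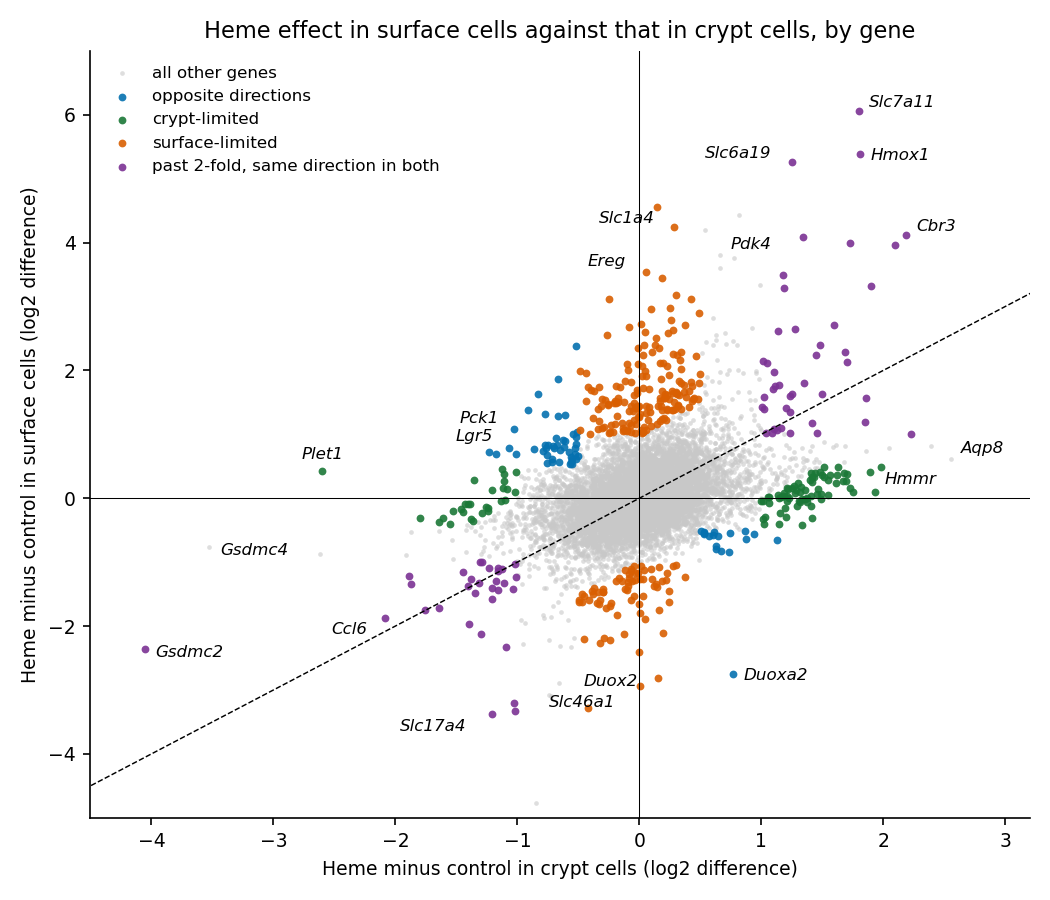
Each point is 1 of 11147 genes, with its crypt effect on the horizontal axis and its surface effect on the vertical axis, both as log2 differences of heme minus control. Points on the dashed line have equal effects, and colours mark the classes. The widest spread is along the vertical axis, where Slc7a11 reaches 6.05 and Hmox1 5.39, with crypt effects of 1.80 and 1.81.

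Genes higher in both compartments included enzymes and carriers of detoxification. The median over the 43 shared genes was 1.77 at the surface and 1.25 in the crypt. Slc7a11, the cystine importer that feeds glutathione synthesis, read 4.21 on the control surface array and 10.27 on the heme surface array, and 5.72 and 7.52 on the control and heme crypt arrays. Its effect difference of 4.26 was the largest of the genes ranked (predicted genes and receptor families were not), and was 3.30 when 32 was added to the linear values to damp dim signals, since both control values lay below the floor. Hmox1 went from 6.14 to 11.53 at the surface (42.0-fold) and from 5.31 to 7.12 in the crypt (3.50-fold), an effect difference of 3.58. Slc6a19, a carrier of neutral amino acids, read 5.12 and 10.38 at the surface and 4.40 and 5.66 in the crypt, where both values were below the floor.

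Several oxidoreductases were past 2-fold in both compartments. Cbr3, a carbonyl reductase, read 6.21 and 10.32 at the surface and 6.49 and 8.68 in the crypt. Me1, the malic enzyme that supplies NADPH, read 6.28 and 10.24, then 5.72 and 7.81. Akr1b8, an aldo-keto reductase, read 7.88 and 11.87, then 7.72 and 9.45. Their effect differences were 1.93, 1.87 and 2.26, so each was past 2-fold in heme crypt cells and further past it at the surface. The retinaldehyde dehydrogenase genes Aldh1a7 (surface 3.32, crypt 1.90) and Aldh1a1 (2.71 and 1.60) followed the same order. Effect differences were smaller for Rrm2, the ribonucleotide reductase subunit that makes DNA precursors (2.14 and 1.70), Tmigd1 (2.28 and 1.68) and the glutathione transferase gene Gsta3 (1.57 and 1.86). The transferrin receptor gene Tfrc had effects of 1.98 and 1.10. Scd1, the desaturase that makes monounsaturated fatty acids, was the member with the clearest crypt excess, at 8.05 and 9.07 at the surface and 7.25 and 9.47 in the crypt.

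The 31 genes lower in both compartments made 0.278% of all genes, too small a share to judge short marker lists by. They held no member of the surface colonocyte list or of the smooth muscle and fibroblast list. Of the 14 genes in the latter list, 3 had a crypt effect of -1 or less (background 1.16%). At the surface 0 of the 14 did (background 1.88%). Gsdmc2, of the pore-forming gasdermin C family, read 11.18 and 8.82 at the surface and 10.84 and 6.78 in the crypt, so it was lower by 4.05 in the crypt and by 2.36 at the surface on the log2 scale. Its neighbour in the family Gsdmc4 read 10.65 and 9.89 at the surface and 10.07 and 6.55 in the crypt, an effect difference of 2.76. The gasdermin C genes are close copies, so their probe sets may share signal. The chemokine gene Ccl6 had effects of -1.87 and -2.08, and Edn1, encoding the vasoactive peptide endothelin, of -1.75 and -1.76. Sult1a1 and Sult1c2, which encode cytosolic sulfotransferases, had -1.35 and -1.87, and -1.21 and -1.89. Slc17a4, an organic anion carrier, had a larger effect at the surface (-3.38) than in the crypt (-1.21). The sulfate carrier gene Slc13a1 had the same form (-3.33 and -1.02), with both crypt values below the floor. Aspn, Dpt and Pamr1, genes of the connective tissue matrix or its cells, had surface effects of -1.71, -1.26 and -1.37 and crypt effects of -1.65, -1.38 and -1.40. Beside them, the smooth muscle and fibroblast list had medians of -0.41 at the surface and -0.72 in the crypt. Its part in these values was not tested.

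Surface-limited genes with more RNA on heme covered amino acid carriers, lipid enzymes and growth factors. The 166 genes had medians of 6.58 and 8.23 on the control and heme surface arrays, and of 6.39 and 6.38 on the crypt arrays. Slc1a4, a carrier of alanine, serine and cysteine, read 6.05 and 10.30 at the surface and 8.29 and 8.57 in the crypt. On the control diet its signal was thus lower at the surface than in the crypt, and on heme it was higher. Acot2, a mitochondrial thioesterase of fatty acid metabolism, read 7.14 and 10.11, then 7.28 and 7.38. Gpat3, an acyltransferase of triglyceride synthesis, read 7.34 and 9.90, then 6.26 and 6.00. Creb3l3, a membrane-bound transcription factor of lipid metabolism, read 6.34 and 9.45 at the surface, with crypt values of 5.15 and 5.57 below the floor. These 4 had surface levels above the floor on both diets.

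Other surface-limited genes went from below the floor to above it. Ereg, encoding the EGF receptor ligand epiregulin, read 5.01 and 8.55 at the surface and 4.98 and 5.04 in the crypt. Plat, encoding tissue plasminogen activator, read 4.72 and 7.40, then 4.52 and 4.44. Dthd1 (4.15 and 7.26), Ccdc87 (4.10 and 7.55), Dmp1 (4.29 and 7.47), Ugt8a (4.77 and 7.74), Krtap13 (3.04 and 5.76) and the metallothionein gene Mt4 (4.76 and 7.37) had the same form at the surface, with all their crypt values below the floor. With 32 added to the linear values, their effect differences shrank, from 3.36 to 1.96 for Dthd1, from 3.26 to 2.10 for Ccdc87 and from 2.71 to 1.10 for Krtap13. Of the 166 genes, 62 (37.3%) had both crypt values below the floor, against 5.89% of all 11147 genes. For those 62 the arrays show a surface difference and give little measure of the crypt effect, and 103 of the 166 remained when each compartment had to reach the floor by itself.

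Surface-limited genes with less RNA on heme included genes of surface oxidases, transporters and the interferon response. Their 72 members had medians of 7.99 and 6.40 on the control and heme surface arrays and of 6.39 and 6.34 on the crypt arrays. Duox2, an oxidase that releases hydrogen peroxide into the lumen, read 10.53 and 7.72 at the surface and 8.00 and 8.15 in the crypt. Slc4a4, a sodium bicarbonate cotransporter, read 8.58 and 6.18 at the surface and 8.42 and 8.41 in the crypt, so the compartments were alike on the control diet and 2.23 apart on heme. Slc46a1, the proton-coupled folate carrier, read 8.75 and 5.81 at the surface and 6.01 and 6.01 in the crypt. Trpv6, the calcium entry channel, read 6.84 and 4.72 with crypt values of 4.62 and 4.49 below the floor, and its effect difference was -1.28 with 32 added. Bid, a proapoptotic member of the BCL2 family, read 7.13 and 5.24, then 5.98 and 6.02. Slc37a2 (10.83 and 8.65) and Hkdc1 (8.43 and 6.63) were also lower, with crypt effects of -0.29 and 0.01. On the control diet 63 of the 72 genes read higher at the surface than in the crypt, 50 of them by at least 2-fold, and on heme 19 did so by 2-fold. These counts share their arrays with the rule that chose the genes. Both crypt values were below the floor for 24 of the 72 (33.3%), against 5.89% of all genes, so their crypt effect is poorly measured.

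**Figure D3:**
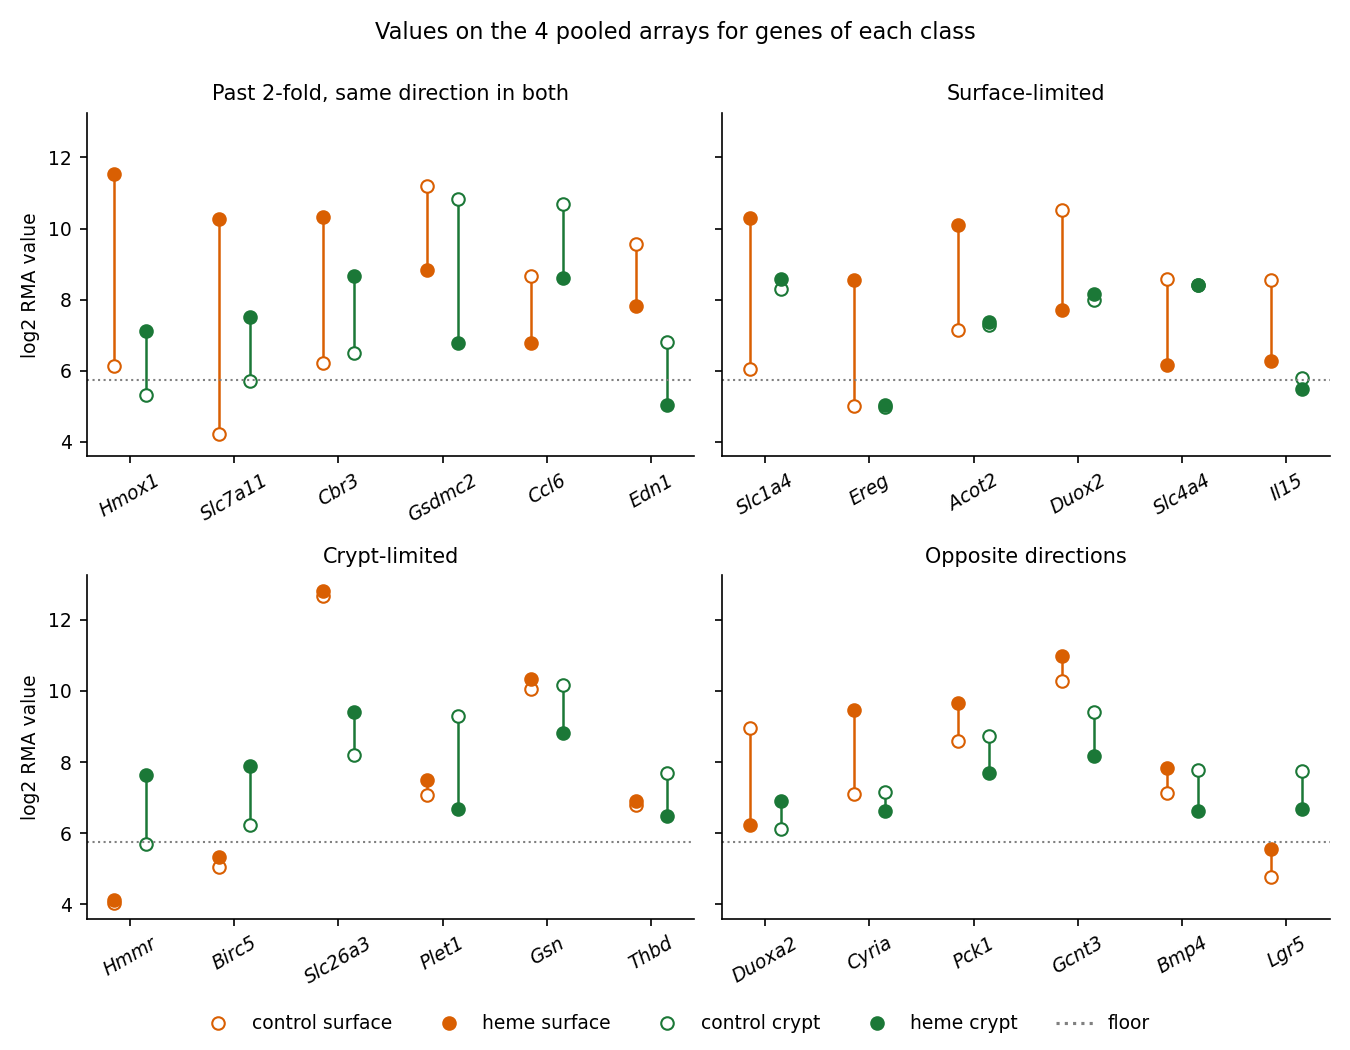
Values on the 4 pooled arrays (vertical axis, log2 RMA) for 6 genes of each class (horizontal axis), with open circles for control, filled circles for heme, orange for surface, green for crypt and a dotted line at the floor of 5.75. Slc4a4 shows crypt values of 8.42 and 8.41 that overlie each other while the surface values are 8.58 and 6.18.

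The NRF2 list was the functional list with the largest positive median among those of more than 3 genes. Of its 36 members above the floor, 19 had an effect difference of 1 or more (background 3.29%), 33 were above 0, and the median was 1.14 (all genes -0.02). The median effect was 1.55 at the surface and 0.65 in the crypt. In surface cells 29 of 36 were higher (3.36%), and in crypt cells 10 were (1.69%), all 10 of them among the shared genes. Median levels were close between the compartments on the control diet, 7.76 at the surface and 8.28 in the crypt, and were 10.31 and 8.90 on heme. Beside Slc7a11 and Hmox1, the leaders were Ptgr1, a reductase of lipid aldehydes (6.01 and 10.21, then 7.96 and 8.50), the conjugate export pump gene Abcc2 (5.87 and 10.30, then 4.80 and 5.62) and the quinone reductase gene Nqo1 (6.56 and 10.65, then 7.10 and 8.44). Abcc4, a related pump, was no member and read 7.17 and 11.10, then 7.83 and 8.75. Of 24 genes of heme and iron handling, Hmox1 and the iron regulatory protein gene Aco1 had effect differences of 3.58 and 1.10 (background past 1, 3.29%). Slc46a1 and the metal importer gene Slc11a2 had -2.95 and -1.21 (past -1, 2.17%). Slc11a2 read 8.21 and 7.35 at the surface and 7.70 and 8.05 in the crypt.

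Of 23 amino acid and peptide carriers, 7 had effect differences past 1 (background 3.29%) and none past -1 (2.17%), with a median of 0.08 that became -0.00 when centred on ribosomal protein genes. After Slc7a11, Slc6a19 and Slc1a4 came Slc7a7 (effect difference 1.71), Slc7a9 (1.59) and Slc6a9 (1.51). Slc7a9, the light subunit of the cystine and basic amino acid exchanger, had a surface effect of 2.39, with crypt values of 4.54 and 5.34 below the floor. Its heavy subunit gene Slc3a1 read 9.08 and 11.48, then 5.80 and 7.28. Of 18 ATF4 targets above the floor, the lipoprotein receptor gene Vldlr (1.75) and Cth, of cysteine synthesis, passed 1 (background 3.29%), and the median was 0.20. Psat1, of serine synthesis, lay on the other side with surface values of 5.29 and 5.62 below the floor and crypt values of 6.05 and 7.18.

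Upstream sequences of these genes were read from RefSeq (GRCm38.p6), which held a promoter window for 8940 of the 11147 genes, and the 250 bases before each annotated start were searched on both strands. The antioxidant response element TGACNNNGC, the NRF2 binding motif, lay in 14.6% of 41 windows of shared higher genes and in 11.3% of 177 windows of surface-limited higher genes, near the 11.7% of 11362 windows of all genes above the floor. In the NRF2 list it lay in 6 of 35 windows (17.1%). The letters TGATGNAA, the core shared by ATF4 and C/EBP composite sites, lay in 3 of 41 (7.32%) and 8 of 177 (4.52%) windows of the same 2 classes and in 1.95% of all above the floor. It also lay in 2 of 27 windows (7.41%) of crypt-limited lower genes and in 3.45% of the whole promoter table. Abcc2 and Slc7a11 are shown, on chr19:43782180-43782248 (plus strand) and chr3:50443642-50443709 (minus strand), because they are among the genes with the largest effect differences and hold a match 98 and 66 bases upstream. Capitals mark the matches, TGACNNNGC in Abcc2 and TGATGNAA in Slc7a11, where it occurs once on each strand.
Abcc2: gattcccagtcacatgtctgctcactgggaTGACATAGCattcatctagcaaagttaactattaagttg
Slc7a11: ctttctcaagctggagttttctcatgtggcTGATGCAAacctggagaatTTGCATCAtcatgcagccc
A match is a run of letters and was not tied to binding of a factor.

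Fatty acid oxidation genes stood higher on heme at the surface and hardly differed in the crypt. Of 23 members above the floor, 10 were higher in surface cells and none in crypt cells (background 3.36% and 1.69%). Effect differences passed 1 for 9 genes (background 3.29%) and were above 0 for 22, with a median of 0.80. Pdk4, a kinase that holds back pyruvate oxidation, read 6.15 and 9.95 at the surface with crypt values of 4.62 and 5.28 below the floor. Acadl, an acyl-CoA dehydrogenase, read 9.48 and 11.03, then 8.61 and 8.85, and Acaa2, a thiolase, read 8.91 and 10.05, then 9.39 and 9.32. The fatty acid translocase gene Cd36 was an opposite gene, with 6.16 and 7.07 at the surface and 6.47 and 5.84 in the crypt. Cholesterol and fatty acid synthesis genes gave a different picture, with medians of 0.58 at the surface and 0.63 in the crypt. All 21 had positive crypt effects and 18 had positive surface effects. Scd1 (-1.21) was the 1 member with an effect difference past 1 in size (background past -1, 2.17%).

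Of 11 genes above the floor for ligands and receptors of the EGF receptor family, Ereg (3.48), Nrg1 (2.04) and Btc (1.32) passed 1 (background 3.29%), of which Ereg and Nrg1 were surface-limited, and the list median was 0.53, or 0.24 where each compartment had to reach the floor. Nrg1, encoding neuregulin, read 6.30 and 7.97 at the surface, with crypt values of 5.32 and 4.95 below the floor. Of 21 immediate early genes, 5 passed 1 (background 3.29%): Ier3 (2.05), Dusp6 (1.73), Dusp5 (1.71), Egr2 (1.45) and Egr1 (1.39). Dusp6, a phosphatase that dampens ERK signalling, read 8.47 and 9.95 at the surface and 7.84 and 7.58 in the crypt. Jund, of the AP-1 family, was on the other side (-1.01, background past -1 2.17%). Of 14 wound-associated genes, 5 were past 1 (background 3.29%) and Ly6g was past -1 (2.17%). Plaur, the urokinase receptor gene, read 6.99 and 9.55, then 5.50 and 6.13. Ptgs2, the inducible prostaglandin synthase gene of the defence list, read 7.50 and 9.41, with crypt values of 4.68 and 4.70 below the floor.

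**Figure D4:**
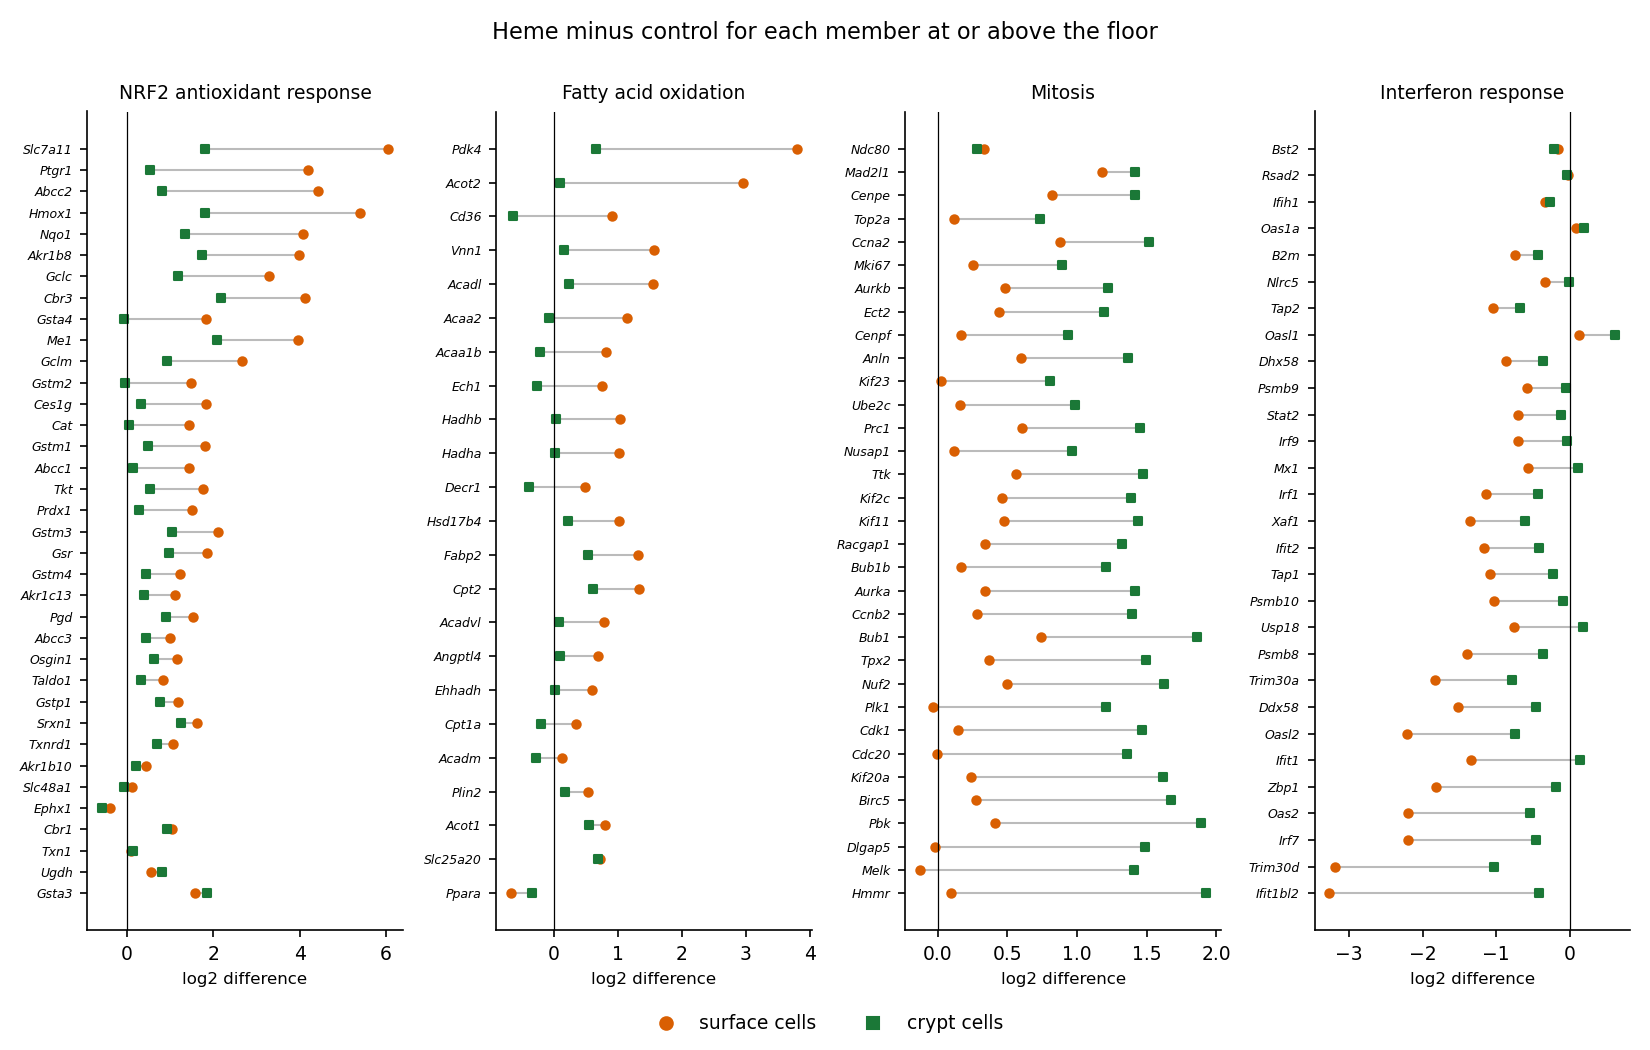
Heme minus control (horizontal axis, log2 difference) in surface cells (orange circles) and crypt cells (green squares) for each member above the floor of 4 gene lists, ordered by effect difference. The surface circle lies to the right of the crypt square for 33 of 36 NRF2 genes and 22 of 23 fatty acid oxidation genes, and to the left for 32 of 33 mitotic genes and 27 of 29 interferon genes.

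Of 29 interferon response genes above the floor, 16 were lower in surface cells (background 1.88%) and 1 in crypt cells (1.16%). Effect differences were below 0 for 27 and past -1 for 10 (background 2.17%), with a median of -0.75. The median level at the surface was 7.40 on control and 6.52 on heme, against 6.05 and 5.74 in the crypt. The crypt medians lay near the floor, and members such as Ifit1, Ifit1bl2, Oas2 and Zbp1 had both crypt values below it. Crypt effects of such members are poorly measured, as are their effect differences. How far low crypt signal accounts for the contrast between the compartments was not tested. Irf7, a transcription factor of the response, read 9.90 and 7.70 at the surface and 5.93 and 5.48 in the crypt. Ifit1, an antiviral RNA-binding protein gene, read 7.40 and 6.06 with crypt values of 3.79 and 3.92 below the floor. Ifit1bl2, of the same family, read 7.13 and 3.85, then 3.31 and 2.89, and its effect difference of -2.85 was -1.80 with 32 added. Zbp1, a nucleic acid sensor (-1.64), and Oas2, a synthetase of the antiviral RNase L pathway (-1.66), had the same form. Trim30d read 8.43 and 5.23 at the surface and 6.25 and 5.22 in the crypt, and was the member lower in both.

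The interferon-stimulated response core (a pair of GAAA runs with any 2 bases between them) was found in 9 of 27 upstream windows of this list (33.3%), against 2.43% for all genes above the floor and 6.49% of 77 windows of surface-limited lower genes. The list was chosen as interferon genes, so this share describes the list. The windows below are shown because Ifit1 and Ifit1bl2 lie head to head and share the elements, and because the Trim30 genes are near copies. They lie on chr19:34640755-34640824 (plus strand), chr19:34640774-34640843 (minus strand), chr7:104507851-104507920 (minus strand) and chr7:104465194-104465259 (minus strand), with capitals for the element.
Ifit1: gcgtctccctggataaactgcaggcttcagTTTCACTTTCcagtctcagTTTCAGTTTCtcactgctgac
Ifit1bl2: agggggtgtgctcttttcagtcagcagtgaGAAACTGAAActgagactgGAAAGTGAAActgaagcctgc
Trim30d: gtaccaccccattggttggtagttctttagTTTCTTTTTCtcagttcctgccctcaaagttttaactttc
Trim30a: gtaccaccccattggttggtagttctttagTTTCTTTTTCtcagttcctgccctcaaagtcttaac
The Ifit1 and Ifit1bl2 windows overlap by 51 bases. Trim30a and Trim30d match at 65 of 66 compared positions there, and their probe sets could share signal. Trim30a read 8.40 and 6.57 at the surface and 6.99 and 6.20 in the crypt.

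Of 19 members of the defence list above the floor, 7 had effect differences past -1 (background 2.17%) and 2 past 1 (3.29%). Duoxa2, the maturation factor of Duox2, read 8.96 and 6.22 at the surface and 6.13 and 6.89 in the crypt, so its effects were -2.74 and 0.77. Its effect difference of -3.51 was the most negative of the genes ranked. Nos2, the inducible nitric oxide synthase gene, had effects of -0.83 and 0.74, with 3 of its 4 values below the floor and a difference of -1.57 that was -0.88 with 32 added. Saa1, an acute-phase gene, read 11.27 and 10.52, then 5.49 and 5.91. Pla2g2a, a secreted phospholipase gene, was limited to the crypt, at 5.96 and 7.58 there and at 4.52 and 4.88, below the floor, at the surface.

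Genes limited to the crypt and higher on heme included genes of dividing cells. Of the 70, 14 were from the mitosis list, which holds 33 of the 11147 genes above the floor. The 70 genes had medians of 6.47 and 7.78 on the control and heme crypt arrays and of 5.03 and 5.28 on the surface arrays, where 48 of them (68.6%) were below the floor on both diets. Of 33 mitotic genes, 26 were higher in heme crypt cells (background 1.69%) and 1 in heme surface cells (3.36%). Their effect difference was below 0 for 32 and past -1 for 15 (2.17%), with a median of -0.96, and 14 were crypt-limited (0.628%). The median gap between surface and crypt was -1.95 on control and -3.05 on heme. At the surface the median level of the list was 5.11 on control and 5.44 on heme, both below the floor. Surface effects of members below the floor are poorly measured, as is the gap. Hmmr, a spindle gene, read 4.03 and 4.12 at the surface and 5.70 and 7.63 in the crypt. Birc5, which encodes survivin of the chromosomal passenger complex, read 5.05 and 5.33, then 6.22 and 7.90. Kif20a, a cytokinesis motor gene (4.91 and 5.15, then 6.48 and 8.09), Dlgap5 (5.11 and 5.10, then 6.73 and 8.22), Melk (5.59 and 5.46, then 7.05 and 8.45) and Pbk (4.97 and 5.38, then 6.79 and 8.68) were alike in form. At the surface these 6 genes were below the floor on both diets, where a difference is poorly measured, and with each compartment required to reach the floor 22 of the 70 genes were counted.

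Outside the mitosis list, the phosphatase gene Cdc25c (4.11 and 4.21, then 5.46 and 7.21), the centromere gene Cenph, the DNA damage gene Ddias and the Fanconi anaemia gene Fancd2 (4.58 and 4.16, then 5.57 and 6.90) were crypt-limited too. The histone gene H4c6 read 7.80 and 7.40 at the surface, above the floor, and 8.89 and 10.04 in the crypt. Of 31 DNA replication genes, 3 were higher in heme crypt cells (background 1.69%), all 31 had positive crypt effects, the effect difference was below 0 for 29 and its median was -0.52. Tk1, the thymidine kinase gene (-1.34), the ligase gene Lig1 (-1.26), Rpa2 (-1.19) and Mcm10 (-1.12) passed -1 (background 2.17%), while Rrm2 (0.43) lay above 0. Lig1 read 6.74 and 6.28 at the surface, above the floor, and 7.89 and 8.69 in the crypt. No gene of 18 in ribosome biogenesis passed 1 in size, with a median of -0.33, and none of 59 ribosomal protein genes did, with a median of 0.02.

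Upstream of mitotic genes the cell cycle homology region TTTGAA, through which the DREAM complex represses genes outside division, lay in 11 of 29 windows (37.9%), and the CCAAT box, the site of NF-Y, in 21 (72.4%). In crypt-limited higher genes the shares were 28.6% and 62.5% of 56 windows, against 10.5% and 34.8% of all genes above the floor. Other classes ranged widely: 26.8% and 48.8% of 41 windows of shared higher genes held them, 18.2% and 28.6% of 77 windows of surface-limited lower genes, and 10.2% and 32.2% of 177 windows of surface-limited higher genes. Of all windows in the promoter table, 15.99% held TTTGAA. A pair of overlapping matches of these 2 motifs occurred in 0.122% of all 32851 windows. The windows below were picked for a TTTGAA close to the start, after the values had been seen, and lie on chr10:69352948-69353013, chr4:118437344-118437391 (both minus strand), chr7:80294416-80294475 and chr19:37376333-37376381 (both plus strand), with capitals for the match on either strand.
Cdk1: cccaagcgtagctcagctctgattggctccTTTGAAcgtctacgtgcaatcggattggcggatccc
Cdc20: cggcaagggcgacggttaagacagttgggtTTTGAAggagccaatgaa
Prc1: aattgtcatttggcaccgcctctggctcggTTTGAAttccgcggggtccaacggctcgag
Kif11: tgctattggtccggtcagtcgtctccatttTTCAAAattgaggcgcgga
Cdk1, the kinase that starts mitosis, read 6.01 and 6.15 at the surface and 7.80 and 9.27 in the crypt. The anaphase activator gene Cdc20 (5.88 and 5.87, then 7.07 and 8.43), Prc1 (5.16 and 5.77, then 7.27 and 8.72) and Kif11 (4.96 and 5.44, then 7.50 and 8.94) were also higher in heme crypt cells.

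A second set of genes higher in heme crypt cells belongs to the surface. Aqp8, a water channel gene, read 12.50 and 13.11 at the surface and 7.34 and 9.90 in the crypt. Slc26a3, the chloride bicarbonate exchanger, read 12.67 and 12.81, then 8.20 and 9.42, and Slc9a3, the sodium proton exchanger, had effects of 0.79 at the surface and 2.05 in the crypt. Ly6g (11.54 and 12.35, then 4.85 and 7.24) and the proton pump gene Atp12a (11.56 and 12.05, then 5.34 and 7.32) had control crypt values below the floor, and their effect differences of -1.58 and -1.49 were -0.79 and -0.92 with 32 added. Among the 14 markers of surface colonocytes, 6 were past 2-fold upward in the crypt (background 1.69%), 3 were at the surface (3.36%), and 3 had an effect difference past -1 (2.17%), with medians of 0.83 in the crypt and 0.09 at the surface. More surface-type cells in the heme crypt pool and more RNA of these genes per crypt cell cannot be told apart.

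The 28 genes limited to the crypt and lower on heme made 0.251% of all genes, too small a share to judge short marker lists by. They held no member of the endothelial list or of the smooth muscle and fibroblast list. Of the leukocyte list they held 1, the macrophage receptor gene Csf1r (crypt effect -1.02). Past 2-fold lower in heme crypt cells were 3 of 14 smooth muscle and fibroblast markers and 1 of 8 endothelial markers (background 1.16%). Lum and Cd34, with crypt effects of -1.38 and -1.20, missed the class because their effect differences were 0.93 and 0.92. Plet1, a glycolipid-anchored protein gene of the epithelium, read 7.07 and 7.50 at the surface and 9.29 and 6.69 in the crypt, an effect difference of 3.03. Sval1 read 11.07 and 11.53, then 11.11 and 9.98. B3galt2, a galactosyltransferase gene, read 6.85 and 5.05 in the crypt with surface values of 3.85 and 3.55 below the floor. Gsn, encoding the actin-severing protein gelsolin, read 10.05 and 10.33, then 10.18 and 8.82. Thbd, the thrombin cofactor of endothelium (7.70 and 6.49 in the crypt), Tfpi, a coagulation inhibitor (6.18 and 5.17), Cavin2 of caveolae (6.08 and 4.56), the matrix genes Tnc (6.83 and 5.40) and Abi3bp (7.33 and 5.92), and Fgl2 (8.11 and 6.50) had surface effects between -0.30 and 0.41. Beside them, all 8 endothelial markers and all 14 smooth muscle and fibroblast markers had negative crypt effects, with medians of -0.71 and -0.72, against 0.08 and -0.41 at the surface. The leukocyte medians over 9 markers were -0.61 and -0.16. The part of these lists in the crypt-limited genes was not tested. Both surface values were below the floor for 8 of the 28 genes (28.6%, against 7.76% of all genes), Abi3bp and Cavin2 among them. The surface effect of those 8 is poorly measured.

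Of 27 mucin glycosylation and sulfation genes above the floor, 5 were lower in heme crypt cells (background 1.16%) and 3 in heme surface cells (1.88%). Effect differences passed 1 for 6 genes (3.29%) and -1 for none (2.17%), with a median of 0.58. B3gnt6, which builds core 3 mucin glycans, read 6.06 and 5.19 at the surface and 8.55 and 5.94 in the crypt. Gcnt3, which branches mucin glycans, read 10.27 and 10.99, then 9.40 and 8.16, and so was an opposite gene. Fut2, the secretor fucosyltransferase gene, was surface-limited and higher (9.20 and 10.23, then 10.03 and 9.81). Of 8 goblet cell markers, none passed 1 in size and the median was 0.39. Of 5 deep crypt secretory markers, 2 were higher in heme surface cells (background 3.36%) and 1 was lower (1.88%). Spink4 (8.06 and 9.62, then 11.05 and 10.87) and Reg4 (6.18 and 7.41, then 11.11 and 11.07) were higher at the heme surface alone. Kit was lower in both compartments (7.37 and 6.35, then 9.82 and 8.84), with effects of -1.03 at the surface and -0.98 in the crypt. Of 7 enteroendocrine markers above the floor, 2 were higher in heme surface cells (background 3.36%) and 1 was lower (1.88%). Gcg, encoding proglucagon (7.24 and 8.78, then 10.18 and 9.89), and Insl5 were higher at the heme surface alone. Chga was lower in both compartments (8.64 and 7.46, then 8.03 and 7.30), with effects of -1.19 at the surface and -0.73 in the crypt. Tuft cell markers, with 5 above the floor, had medians of -1.17 at the surface and -0.61 in the crypt.

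Of the 62 opposite genes, 44 (0.395%) were higher on heme at the surface and lower in the crypt, and 18 (0.161%) the reverse, and 27 of the 62 had at least 1 value below the floor. In all, 4017 genes (36.0%) had effects of opposite sign at any size. Pck1, which encodes the gluconeogenic enzyme PEPCK, was the 1 gene past 2-fold both ways, with 8.60 and 9.67 at the surface and 8.74 and 7.71 in the crypt. Cyria read 7.09 and 9.47, then 7.15 and 6.63, and Igfbp5, which binds insulin-like growth factors, 5.67 and 7.53, then 7.38 and 6.71. Bmp4, a growth factor gene of the mesenchyme under the epithelium, read 7.14 and 7.83, then 7.79 and 6.61. Lgr5, the receptor gene that marks crypt base stem cells, read 4.76 and 5.55 at the surface, both below the floor, and 7.75 and 6.69 in the crypt. Lgr5 was the 1 member lower past 2-fold of 13 crypt base markers in heme crypt cells (background 1.16%). The list medians were -0.41 in the crypt and -0.35 at the surface. In the reverse direction came Duoxa2, Nos2, Mphosph9 (5.82 and 5.18, then 6.35 and 7.23) and Ssx2ip (9.10 and 8.27, then 8.63 and 9.29).

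Genes recalled as feedback inhibitors of proliferation in this study, which the list does not test independently, were surface-limited where they moved. Il15, a cytokine gene, read 8.55 and 6.29 at the surface and 5.80 and 5.48 in the crypt, and Ihh, the hedgehog ligand gene, read 8.33 and 7.17, then 8.10 and 8.07. Bmp2 read 9.50 and 9.30, then 5.50 and 5.55, and Wif1 was below the floor on all 4 arrays. In the wider list of BMP, hedgehog and Wnt signalling, 1 of 25 members passed 1, Bmp4 (background 3.29%), and 1 passed -1, Ihh (2.17%). These counts are near the shares over all genes, and the list median was 0.05.

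Of 33 genes of ion, water and nutrient transport above the floor, 9 had effect differences past -1 (background 2.17%) and 1 past 1 (3.29%), with a median of -0.27. Slc13a1, a sulfate carrier, read 7.95 and 4.62 at the surface and 5.23 and 4.21 in the crypt. The manganese exporter gene Slc30a10 read 8.86 and 5.98, then 6.39 and 5.73, and the phosphate carrier gene Slc34a2 9.70 and 7.37 with crypt values below the floor. Dio1, a deiodinase of thyroid hormone on no list, read 9.55 and 6.46, then 6.96 and 6.23, and Abcg5, of the sterol exporter, 7.47 and 4.39, then 5.53 and 4.78. The 9 thus combine lower surface values, as for Slc13a1, with higher crypt values, as for Aqp8. Xenobiotic genes had a median of 0.14, with 2 of 25 past 1 (background 3.29%) and 2 past -1 (2.17%). Heat shock and unfolded protein genes had a median of 0.29. Dnajb9 (9.15 and 9.92, then 8.25 and 7.38) was the 1 of these 17 genes past 1 (background 3.29%). None of 15 p53 targets and cell death genes passed 1 in size (median 0.25).

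**Figure D5:**
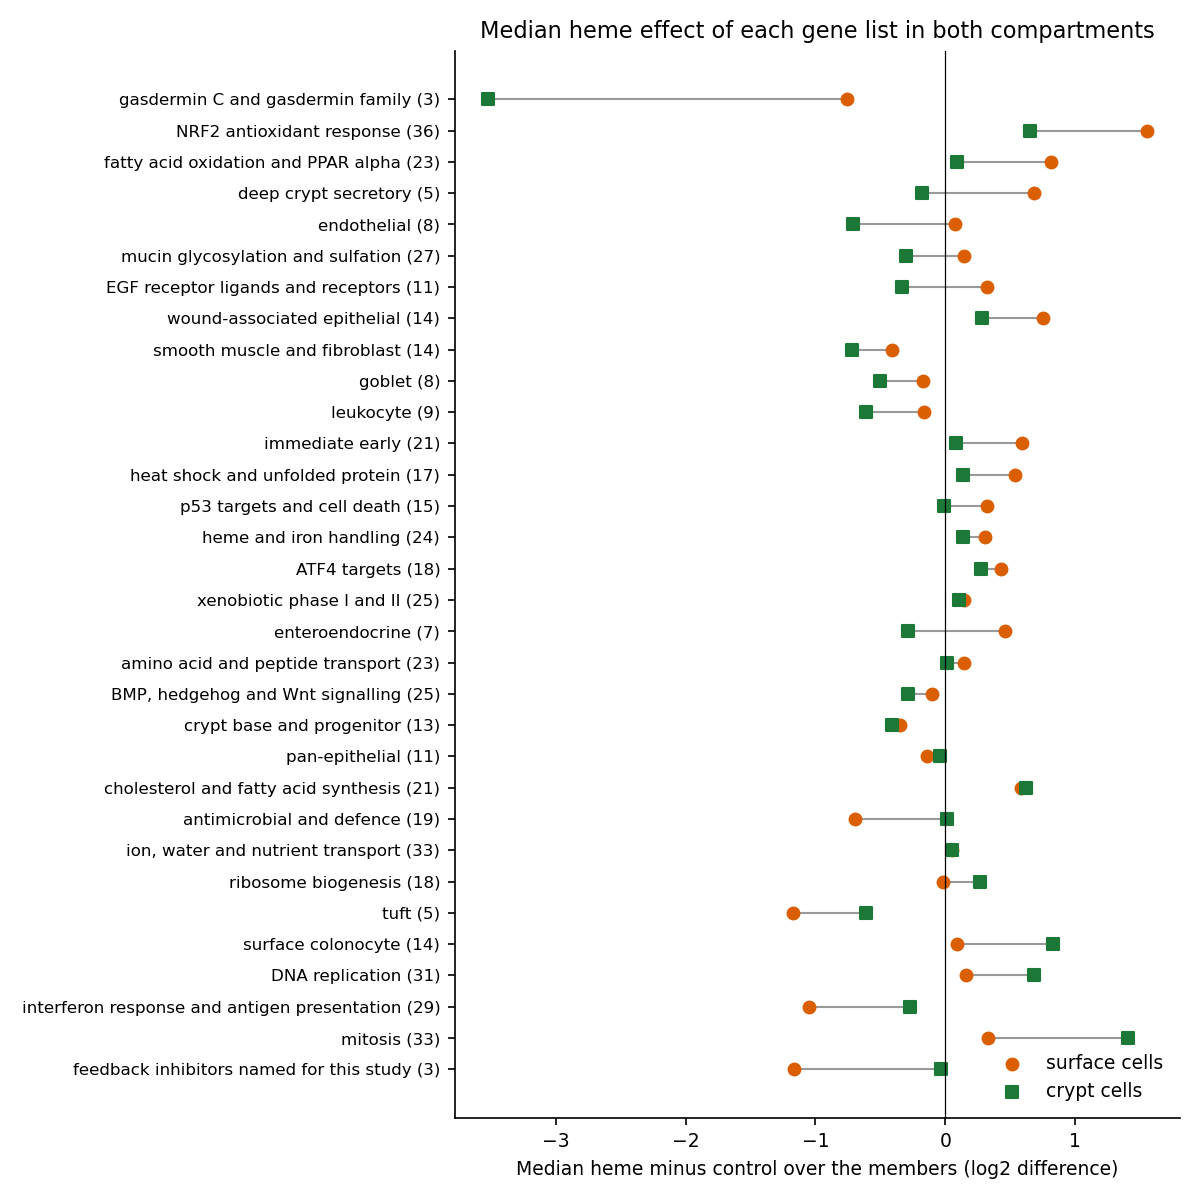
Median heme minus control over the members of each list above the floor (horizontal axis, log2 difference; member number in brackets) in surface cells (orange circles) and crypt cells (green squares), ordered by the median effect difference. NRF2 genes have medians of 1.55 and 0.65 and mitotic genes of 0.33 and 1.41, and the gasdermin list holds 3 genes.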

How the data were processed

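The authors deposited 1 log2 signal for each probe set and array, computed with RMA per the submitters' processing notes, from RNA labelled with an Affymetrix whole-transcript kit per the labels' protocols. RMA corrects background and equalizes the distributions of the arrays, so a shift of most genes would not be visible. Which version of RMA was run, and whether other arrays entered it, was not stated in the labels used here. Values of the 35556 probe sets lay between 1.29 and 14.03, and having 4 arrays limits precision. GEO's platform annotation gave the names: 21789 had 1 symbol, 1621 several and 12146 none. Symbols of 21698 were updated by gene identifier to the GRCm38.p6 gene table, and single-symbol probe sets were averaged per gene (999 genes had several).

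Genes whose highest value was below 5.75 were left out. Classes used 1 (2-fold) and 0.5 on the log2 scale. No test was run, because each group has 1 array. The members, the 33 gene lists and the limits were chosen with earlier results of these data known. Named genes were the 12 largest of each class, the 15 largest effect differences each way, and up to 6 per list, without predicted, microRNA, receptor-family or immunoglobulin genes. Cdk1, Cdc20, Prc1, Kif11 and Trim30a were named for their upstream sequence after their values were seen, and markers below the floor were named outside the rule. The sorting was tested on simulated arrays, with effects planted only in genes well above the floor. That test does not cover genes near or below the floor in a compartment. Alternatives were a 3-fold threshold, other floors, 32 added to linear values, other scalings and probe set rules. Python 3.11.15, numpy 2.4.6, pandas 2.3.3, matplotlib 3.10.9 and limma 3.58.1 under R 4.3.3 were used. Just inside the limits on the effect difference lay Cstb (1.00) and Gstcd (-1.00), and just outside lay Cldnd1 (0.999) and Rnf145 (-0.999).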

Additional observations from a re-analysis of the deposited data

Results flagged for a closer look

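Genes that moved in opposite directions in the 2 compartments are given here with their effect differences (surface minus crypt, log2). Each compares 1 pool per group and the difference was not tested. Those higher on heme at the surface and lower in the crypt were Cyria (2.90), Igfbp5 (2.53), Dppa5a (2.46), Adap2 (2.30), Pck1 (2.11), Sema3a (2.09), Ctsf (1.96), Gcnt3 (1.96), Suox (1.90), Bmp4 (1.86), Lgr5 (1.86) and Rdh1 (1.69). Those lower on heme at the surface and higher in the crypt were Duoxa2 (-3.51), Nos2 (-1.57), Mphosph9 (-1.52), Depdc1b (-1.50), Ssx2ip (-1.49), Ube2j2 (-1.42), Hyls1 (-1.38), Abcb1b (-1.37), Slc16a12 (-1.29), Cyp2d12 (-1.24), H4c14 (-1.17) and Exosc2 (-1.16).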

How the results depend on the processing

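Of the recomputed counts, 53 stayed within 1.5 times their value and 24 did not. At a 3-fold threshold, which fewer differences can reach, 120 and 35 genes had higher and lower effect differences, 9 and 4 were shared, 58 and 16 surface-limited, 2 and 1 crypt-limited, and 17 opposite. With the floor required in each compartment, which leaves 9626 genes, 129 had lower effect differences, 103 were surface-limited and higher, and 22 crypt-limited and higher. With 32 added to the linear values, which shrinks differences of dim genes, effect differences passed for 234 and 125 genes, 21 and 11 were shared, 41 and 10 crypt-limited, and 19 opposite. Centred on ribosomal protein genes, 17 were crypt-limited and lower, and the cause was not tested. With the other compartment held within 0.25, 104 surface-limited genes were higher, and 43 and 16 crypt-limited genes were higher and lower. At 2-fold in each compartment 1 gene was opposite. Over the named genes and alternatives run, no value reversed, 100 dropped under the limit, 15 passed it and 1866 stayed on their side. Of the list medians 8 moved and 223 did not, and the gasdermin median of 1.70 was 0.13 with no floor. Leaving out a replicate was not possible. Signal near background limits the crypt-limited higher genes, 68.6% of which had both surface values below the floor. No paired analysis was possible because each group has 1 array.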

Other observations

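Beside the named genes, 13767 probe sets had no symbol or several, and 6137 of them reached the floor. Of these 6137, 357 had effect differences of 1 or more and 260 of -1 or less, beside 3.29% and 2.17% of the 11147 named genes.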
